A study of Mus musculus and Homo sapiens with 18 samples.

Results

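The insulin-like growth factor (IGF) binding proteins of bladder carcinoma libraries are described here: the mouse genes Igfbp1 to Igfbp7, which are 7 of the 55858 genes in the mouse tables, and the human IGFBP5 transcript ENST00000233813, which is 1 of 228754 transcripts in the human tables. The mouse genes were chosen by symbol and the human transcript by its identifier, and no measured value entered the choice. Igfbp2, Igfbp3, Igfbp4, Igfbp5, Igfbp6 and Igfbp7 had enough counts to be tested in both mouse comparisons, and Igfbp1 did not.

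IGF binding proteins are secreted proteins that hold IGF1 and IGF2 outside the cell. They can keep the ligands away from the IGF1 receptor or carry them towards it, and proteases that cut the binding proteins release the ligand. Igfbp7, also called Mac25 or angiomodulin, is a related protein that binds IGFs weakly and occurs in the extracellular matrix and around vessels.

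The study holds 18 RNA libraries, 3 for each of 6 groups. Relapsed tumours came from mice of a genetically engineered bladder cancer model (GEMM) that had been given cisplatin plus gemcitabine. The sample titles of these libraries say chemotherapy treated. Control tumours came from the same model, and their label gives no treatment beyond control. CUUC-G, a mouse bladder cancer line that the labels file under the same model, was given a CRISPR guide for Igfbp5 (sgIgfbp5) or the control guide sgScr. MGHU3, a human bladder cancer cell line, had IGFBP5 targeted or carried sgScr. The labels call the targeted cells knockdowns and the series design calls them knockouts; the alleles of the model, its driver, the age of the mice, the sequence of the guides and the number of clones are not given in the sources used here. The labels do not say that the 3 libraries of a group came from separate tumours or cultures, so p-values measure only the spread between these libraries.

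The libraries held between 19000000 and 21800000 estimated counts. In every mouse group 0 of 7 immune markers reached 1 TPM, a level scaled for transcript length and library total. Krt5 and Upk3a, markers of basal and umbrella urothelial cells, were at 0 in all 4 mouse groups, and the pan-epithelial marker Epcam averaged between 0.0874 and 0.207 TPM. Krt8, Krt18, Upk1b and Krt14, also epithelial markers, averaged 117.7, 103.5, 89.0 and 26.2 TPM in relapsed tumours. In control tumours they averaged 0.0154, 0.932, 2.625 and 2.11 TPM. In sgIgfbp5 CUUC-G these were 37.2, 33.35, 9.01 and 6.47 TPM, and in sgScr CUUC-G 124.1, 102.9, 77.35 and 27.65 TPM. The summed level of 10 epithelial markers lay between 334 and 351 TPM in relapsed and between 5.80 and 7.84 TPM in control tumours, and between 82.1 and 97.7 TPM in sgIgfbp5 and between 333 and 342 TPM in sgScr CUUC-G. The part of these markers in the changes of the members was not tested. Ddx3y and Eif2s3y, genes of the Y chromosome, were at 0 in relapsed tumours and in both CUUC-G groups, and averaged 29.6 and 52.1 TPM in control tumours. The X-inactivation RNA Xist averaged 57.0 TPM in relapsed and 0.00735 TPM in control tumours, and 167 TPM in sgIgfbp5 and 48.0 TPM in sgScr CUUC-G. The tumour comparison thus sets libraries with Xist and no Y-linked RNA against libraries with Y-linked RNA and hardly any Xist, and sex, source and relapse cannot be told apart in it. Of 14844 mouse genes, 2.452% differed by at least 1 in mean log2(TPM + 1) between relapsed tumours and sgScr CUUC-G, against 20.04% between relapsed and control tumours and 24.16% between sgIgfbp5 and sgScr CUUC-G. The first of these shares compares levels across the tumour and CUUC-G tables, which the authors scaled separately.

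The family lies in 5 places in the mouse genome (GRCm38, GENCODE M21). Igfbp2 (chromosome 1, 72824503 to 72852474, plus strand) and Igfbp5 (chromosome 1, 72857932 to 72874884, minus strand) face each other tail to tail, 5457 bases apart. Igfbp1 (chromosome 11, 7197782 to 7202546, plus strand) and Igfbp3 (chromosome 11, 7206086 to 7213923, minus strand) form a second such pair with 3539 bases between them. Igfbp4 lies alone on chromosome 11 (99041244 to 99054392, plus strand), Igfbp6 on chromosome 15 (102144362 to 102149511, plus strand) and Igfbp7 on chromosome 5 (77349240 to 77408041, minus strand). Igfbp7 overlaps Polr2b at its end and the antisense gene Gm34648, both on the opposite strand. The library kit keeps the strand, but whether the counting used it is not stated.

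The 250 bases before the start of Igfbp7 and Igfbp3, abundant members that moved in opposite directions, and of the targeted gene Igfbp5 are shown 5′ to 3′ (RefSeq, GRCm38.p6, minus strand), with matches to 4 short motifs in capitals. The windows are chr5:77408046-77408295 for Igfbp7, chr11:7213924-7214173 for Igfbp3 and chr1:72874866-72875115 for Igfbp5. They lie before the RefSeq start of each gene, which for Igfbp7 and Igfbp5 differs from the GENCODE start given above. The Igfbp5 window overlaps the first bases of the gene as placed by GENCODE. Both strands were searched for the TATA box, whose letters are TATAAA. The GC box was searched as GGGCGG, the AP-1 site as TGACTCA and the E-box as CACGTG. No match overlapped another.
Igfbp7: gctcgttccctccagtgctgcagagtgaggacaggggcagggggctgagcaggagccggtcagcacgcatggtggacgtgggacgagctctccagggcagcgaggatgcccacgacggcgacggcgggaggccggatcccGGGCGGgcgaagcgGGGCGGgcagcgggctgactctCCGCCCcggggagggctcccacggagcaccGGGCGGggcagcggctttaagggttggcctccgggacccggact
Igfbp3: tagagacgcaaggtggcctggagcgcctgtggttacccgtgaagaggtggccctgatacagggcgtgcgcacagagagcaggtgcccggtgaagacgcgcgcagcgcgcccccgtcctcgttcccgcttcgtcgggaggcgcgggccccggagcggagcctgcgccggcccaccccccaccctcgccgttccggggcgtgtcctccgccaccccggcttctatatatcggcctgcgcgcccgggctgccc
Igfbp5: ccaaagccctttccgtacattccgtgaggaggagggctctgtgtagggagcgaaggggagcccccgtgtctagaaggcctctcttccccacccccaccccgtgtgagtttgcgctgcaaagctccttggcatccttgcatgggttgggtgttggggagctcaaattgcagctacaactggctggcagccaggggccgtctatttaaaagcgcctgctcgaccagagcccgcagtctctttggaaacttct
The Igfbp7 window held 4 GC boxes, at -110, -96, -74 and -44 from the start. None of the 4 motifs was found in the Igfbp3 and Igfbp5 windows, which says only that these letters are not in them. A GC box occurred in 32.7% of 32851 mouse promoter windows of this length, a TATA box in 12.4%, an AP-1 site in 4.46% and an E-box in 6.02%. The Igfbp7 and Igfbp3 windows were 74.0% and 73.2% GC, with 26 and 32 CpG, and the Igfbp5 window was 58.8% GC with 10 CpG. The median window was 52.4% GC with 6 CpG.

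Igfbp4, Igfbp7, Igfbp6 and Igfbp3 made up nearly all of the family's RNA in all 4 mouse groups. The summed level of the 7 genes was between 1050 and 1075 TPM in relapsed and between 891 and 934 TPM in control tumours. It was between 910 and 976 TPM in sgIgfbp5 and between 1044 and 1133 TPM in sgScr CUUC-G. By TPM the total was thus higher in relapsed tumours and lower in sgIgfbp5 cells, with no overlap between libraries in either pair. By CPM (counts scaled to the library size, not divided by transcript length) it was between 1047 and 1096 in relapsed and between 819 and 878 in control tumours. In CUUC-G the CPM totals overlapped, and their mean was higher in sgIgfbp5 cells: they lay between 1254 and 1425 in sgIgfbp5 and between 1173 and 1313 in sgScr cells. Igfbp4 held 37.9% ± 0.54 of the total in relapsed and 45.3% ± 1.37 in control tumours, and 77.1% ± 0.82 in sgIgfbp5 and 41.9% ± 1.82 in sgScr CUUC-G (SD, n = 3). Igfbp7 held 42.8% ± 0.62 in relapsed and 29.4% ± 1.49 in control tumours, and 5.86% ± 0.26 in sgIgfbp5 and 38.2% ± 1.86 in sgScr CUUC-G. By CPM, the Igfbp7 share was 24.7% in relapsed and 16.6% in control tumours, and 2.68% in sgIgfbp5 and 22.3% in sgScr CUUC-G. The Igfbp4 share by CPM was 61.5% in relapsed and 61.8% in control tumours, and 83.0% in sgIgfbp5 and 63.7% in sgScr CUUC-G, so the difference of Igfbp4 in the tumours depended on the unit.

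**Figure D1:**
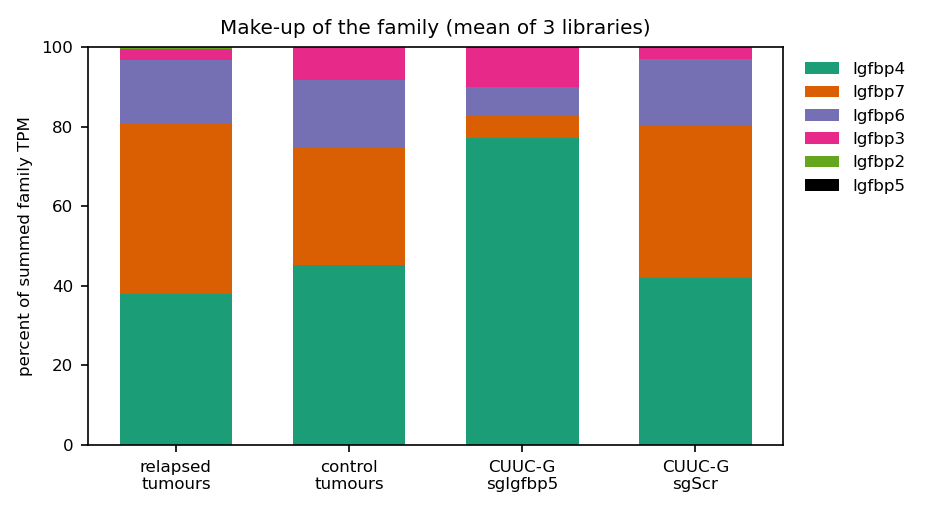
Share of each member in the family's summed TPM (y axis, percent, mean of 3 libraries) in relapsed and control tumours and in sgIgfbp5 and sgScr CUUC-G (x axis). Igfbp4 takes 77.1% in sgIgfbp5 CUUC-G, where Igfbp7 is at 5.86%; Igfbp2 and Igfbp5 are too small to see.

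By level per length, the order was Igfbp7, Igfbp4, Igfbp6, Igfbp3, Igfbp2, Igfbp5 in relapsed tumours. In control tumours and in sgScr CUUC-G, Igfbp4 stood before Igfbp7 and the rest of the order was the same. In sgIgfbp5 CUUC-G the order was Igfbp4, Igfbp3, Igfbp6, Igfbp7, Igfbp2, Igfbp5. Neighbours in these orders did not overlap between libraries, except that Igfbp1 and Igfbp5 overlapped in sgIgfbp5 CUUC-G. Levels in the tumour and CUUC-G tables were scaled separately by the authors, so the members are ordered only within a table.

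In the relapsed tumours, 5 of the 6 tested members rose and 1, Igfbp3, fell (edgeR, adjusted p under 0.05). Among all 14373 genes tested 73.5% were called, 36.6% as higher and 36.9% as lower, so that a call by itself sets no member apart. The median absolute log2 fold change over all genes was 0.52. By their estimates Igfbp5, Igfbp3, Igfbp7 and Igfbp2 moved further than that median, and Igfbp4 and Igfbp6 moved less. The 95% interval of Igfbp2, from 0.218 to 1.465, includes the median.

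Igfbp7 had 468, 449 and 444 TPM in the relapsed tumours, against 275, 275 and 260 TPM in the control tumours. Every relapsed library was above every control library. The fold change was 1.87, or 0.91 ± 0.04 on the log2 scale (SE, n = 3 per group; edgeR adjusted p = 7.64e-18). Almost all of it came from 1 transcript, Igfbp7-201, which held 98.7% of the gene's TPM in relapsed and 99.4% in control tumours. In the endothelial marker list 3 of 5 genes had a higher mean in relapsed tumours, and the sum of the 5 was between 36.93 and 39.99 TPM in relapsed and between 0.518 and 0.981 TPM in control tumours. Kdr made up 37.9 TPM of this sum in relapsed tumours, while the defining endothelial genes Cdh5 and Pecam1 averaged 0.0429 and 0.32 TPM there. The part of these markers in the result was not tested.

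Igfbp3, the main carrier of IGFs in blood and a protein found in many tumours, went the other way. It had 31.5, 30.0 and 32.1 TPM in relapsed tumours, against 73.3, 73.6 and 72.8 TPM in control tumours. The groups lay far apart, with an SD of 1.07 TPM in relapsed and 0.378 TPM in control tumours. Igfbp3 was 2.14-fold lower in relapsed tumours, a change of -1.10 ± 0.05 on the log2 scale (SE; edgeR adjusted p = 4.53e-17). All 5 smooth muscle markers and 4 of 7 fibroblast markers had a lower mean in relapsed tumours. The sum of the fibroblast markers, most of it Col1a1, Col1a2 and Col3a1, was between 2362 and 2380 TPM in relapsed and between 5679 and 5856 TPM in control tumours, and that of the smooth muscle markers between 1152 and 1203 TPM in relapsed and between 2119 and 2196 TPM in control tumours. Pdgfra went the other way, with 26.7 TPM in relapsed and 3.4 TPM in control tumours, and so did Dcn and Lum. The part of these markers in the result was not tested, and in bulk libraries fewer cells of a type and less RNA per cell cannot be told apart.

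Igfbp5, the member the study targeted in cell lines, was scarce in the tumours and higher at relapse. Its estimated counts were 36, 64 and 49 in relapsed tumours, against 4, 17 and 6 in control tumours. In TPM these were 0.429, 0.764 and 0.573 in relapsed tumours, against 0.0678, 0.340 and 0.0801 in control tumours. No control library reached the lowest relapsed one, and control replicate 2 came nearest to it. All 149 counts of relapsed tumours were assigned to Igfbp5-201, the coding transcript. In control replicates 1, 2 and 3 Igfbp5-201 held 0, 0 and 6 counts. Igfbp5-202, which has no defined coding sequence, held 4, 17 and 0 there. Control replicate 3 was thus all on the coding transcript, like the relapsed libraries. With so few counts a difference in transcripts between the groups cannot be told from uncertain assignment. The log2 fold change of the gene was 2.44 ± 0.44 (SE; edgeR adjusted p = 1.97e-05), and without control replicate 2 it was 3.32.

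Igfbp2, the tail-to-tail neighbour of Igfbp5 and a binding protein with a preference for IGF2, was low as well. It had 3.58, 3.13 and 5.84 TPM in relapsed tumours, against 2.14, 1.78 and 3.85 TPM in control tumours. The groups overlapped: control replicate 3 lay above relapsed replicates 1 and 2. The log2 fold change was 0.84 ± 0.32 (SE; edgeR adjusted p = 0.0199). The call was lost with DESeq2 (adjusted p = 0.0589), with limma on log2(TPM + 1) (adjusted p = 0.132), and in edgeR without relapsed replicate 3 (log2 fold change 0.53, adjusted p = 0.194), without control replicate 1 (0.71, adjusted p = 0.0685) and without control replicate 2 (0.63, adjusted p = 0.0913).

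Igfbp6, which binds IGF2 far more tightly than IGF1, had 172, 169.7 and 166 TPM in relapsed tumours, against 164, 145 and 159.8 TPM in control tumours. The relapsed libraries were all above the control ones, by a narrow margin. The log2 fold change was 0.25 ± 0.05 (SE; edgeR adjusted p = 0.000143); with limma on log2(TPM + 1) it was 0.12 and the call was lost (adjusted p = 0.0872). Igfbp1, a binding protein made mainly in liver, had 0 counts over the 3 relapsed libraries, which allows up to 0.0492 CPM, and 1 count over the 3 control libraries. Such limits cover counting error only.

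**Figure D2:**
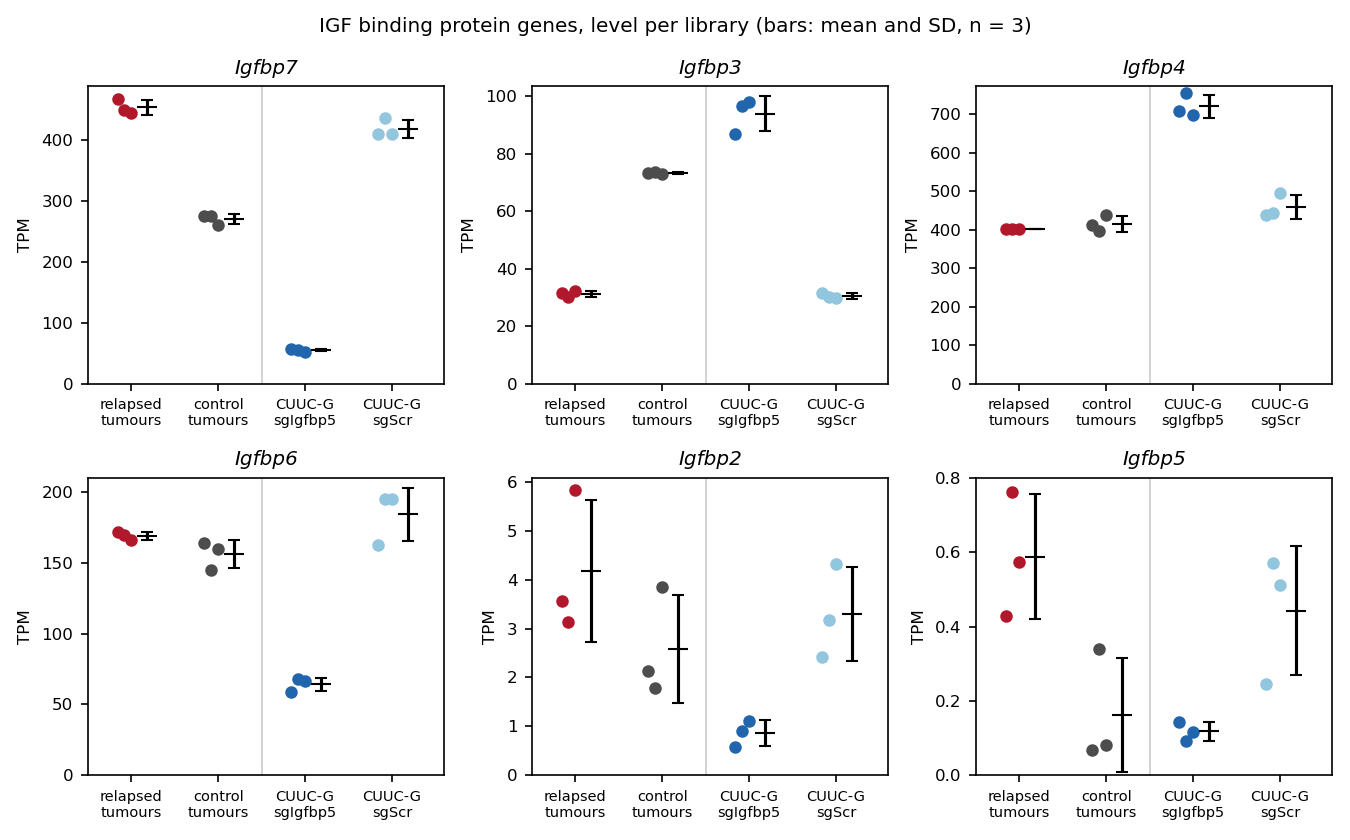
TPM (y axis, a separate linear scale for each gene) of 6 members in each library of relapsed and control tumours and of sgIgfbp5 and sgScr CUUC-G (x axis); points are libraries and black bars the mean and SD. Igfbp7 is higher in relapsed than in control tumours and lower in sgIgfbp5 than in sgScr CUUC-G, and Igfbp3 shows the opposite in both pairs.

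Igfbp4, which binds both IGFs and is cut by the protease PAPP-A, was the member whose answer depended on the unit. Its level was 401, 402 and 401 TPM in relapsed tumours, against 412, 396 and 437 TPM in control tumours, and the groups overlapped. By CPM it had 670, 641 and 667 CPM in relapsed tumours, against 532, 500 and 555 CPM in control tumours, and these did not overlap. The count-based log2 fold change was 0.32 ± 0.03 (SE; edgeR adjusted p = 4.12e-09), while limma on log2(TPM + 1) gave -0.05 (adjusted p = 0.336). TPM divides each transcript's count by its length, and the counts assigned to the transcripts of Igfbp4 differed between the groups. The scaling of the libraries differs between these fits as well. With limma on log2(TPM + 1) the estimate was also lower for Igfbp6, a gene with 1 transcript (0.117, against 0.245 by counts). The same held for Igfbp7 (0.747 against 0.905) and Igfbp3 (-1.205 against -1.096). The part of each in the Igfbp4 result was not tested.

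Igfbp4-201, the full-length coding transcript of 3831 bases, had 239.6, 228 and 238 TPM in relapsed tumours, against 198, 191 and 210.2 TPM in control tumours. Igfbp4-204, a coding transcript of 742 bases, had 2.10, 0.698 and 2.70 TPM in relapsed tumours, against 72.4, 44.0 and 77.3 TPM in control tumours. Both transcripts separated the groups, in opposite directions. Igfbp4-204 thus held 0.457% ± 0.26 of the gene's TPM in relapsed and 15.5% ± 3.78 in control tumours (SD, n = 3), from 34 and 1122 counts over the groups. Igfbp4-203, which has no defined coding sequence, had 155, 172.8 and 158.4 TPM in relapsed tumours, against 135.4, 152.5 and 141.4 TPM in control tumours. Its groups did not overlap, by a margin of under 3 TPM. Igfbp4-202, also without a defined coding sequence, had 0.923, 0 and 1.495 TPM in relapsed tumours, against 5.39, 6.73 and 8.57 TPM in control tumours. These transcripts were looked at after the gene's values were seen and were not tested. Their split is an estimate, since they share bases of the second exon and the first exon of Igfbp4-203 has 28 bases.

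**Figure D3:**
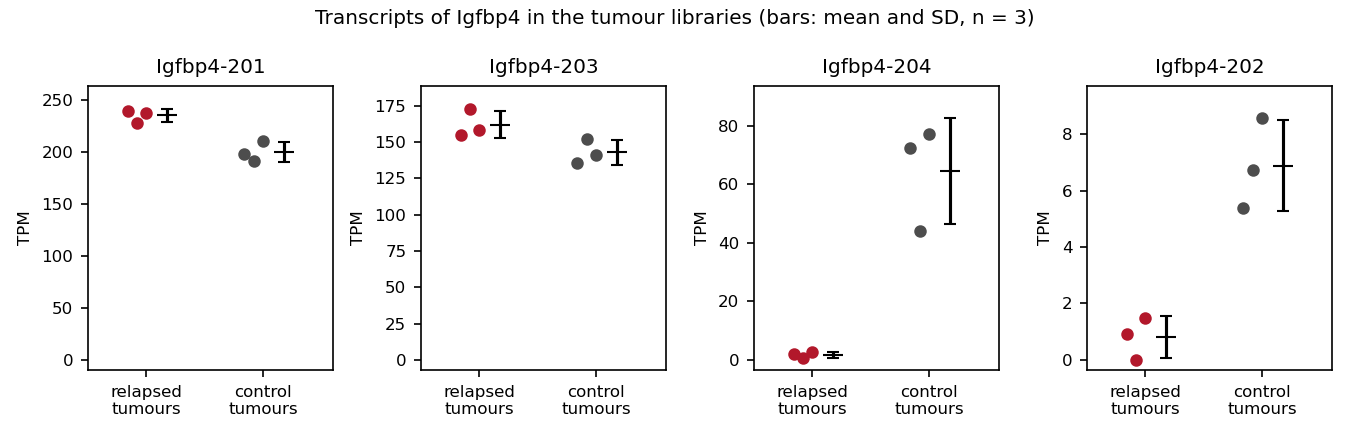
TPM (y axis, a separate linear scale for each panel) of 4 Igfbp4 transcripts in the relapsed and control tumour libraries (x axis); points are libraries and black bars the mean and SD. Igfbp4-204 is between 0.698 and 2.70 TPM in relapsed tumours and between 44.0 and 77.3 TPM in control tumours, while Igfbp4-201 is higher in relapsed tumours.

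The transcripts differ in their first exon and meet at the second, which starts at position 99048226 of chromosome 11. The end of each first exon is shown 5′ to 3′ in lower case, followed in capitals by the first 12 bases of the shared second exon (GRCm38, plus strand, GENCODE M21). The lower-case parts are chr11:99041806-99041845 for Igfbp4-201, chr11:99043597-99043624 for Igfbp4-203 and chr11:99047334-99047403 for Igfbp4-204.
Igfbp4-201: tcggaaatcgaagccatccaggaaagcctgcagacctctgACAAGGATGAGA
Igfbp4-203: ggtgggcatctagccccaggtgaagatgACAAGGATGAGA
Igfbp4-204: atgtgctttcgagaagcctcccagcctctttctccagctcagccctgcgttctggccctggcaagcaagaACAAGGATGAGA
The first exon of Igfbp4-204 (chr11:99047311-99047403) lies inside the first intron of Igfbp4-201. Igfbp4-204 lacks the 349 coding bases of the first exon of Igfbp4-201 and reads 161 codons, against 254 in Igfbp4-201. In CUUC-G only gene totals were given, so its transcripts were not analysed here. The ratio of Igfbp4's counts per TPM to those of Igfbp6, a gene with 1 transcript, depends on the mean length of the Igfbp4 transcripts. It was 2.96, 2.85 and 2.95 in relapsed tumours, against 2.48, 2.51 and 2.45 in control tumours. In CUUC-G it was 2.40, 2.40 and 2.43 in sgIgfbp5 cells, against 2.81, 2.69 and 2.53 in sgScr cells. The groups did not overlap in either pair, and the ratio was lower where the Igfbp4-204 share was high in tumours.

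In CUUC-G, 2 of the 6 tested members, Igfbp3 and Igfbp4, rose in sgIgfbp5 cells and 4 fell. Among all 14553 genes tested 70.8% were called, 36.5% as higher and 34.3% as lower in sgIgfbp5 cells (edgeR, adjusted p under 0.05), and the median absolute log2 fold change was 0.64. The 6 calls held under every alternative run in which the gene could be tested. All 6 members but Igfbp4 moved further than that median.

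The targeted gene itself had few counts. Igfbp5 had 12, 8 and 10 estimated counts in sgIgfbp5 cells, against 20, 51 and 43 in sgScr cells. In TPM these were 0.143, 0.0926 and 0.117 in sgIgfbp5 cells, against 0.246, 0.572 and 0.511 in sgScr cells. The groups did not overlap, and sgScr replicate 1 lay nearest to the sgIgfbp5 cells. Igfbp5 was 4-fold lower, a change of -2.0 ± 0.42 on the log2 scale (SE; edgeR adjusted p = 0.00125). The counts cover the whole gene and the site of the guide is not given in the sources used here, so they do not show whether the reading frame was cut.

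Igfbp7 fell the most among the members. It had 56.1, 55.6 and 52.5 TPM in sgIgfbp5 cells, against 410.3, 435 and 409 TPM in sgScr cells. The groups lay far apart, with an SD of 3.54% of the mean in sgIgfbp5 and 3.57% in sgScr cells. The gene was 7.83-fold lower, a change of -2.97 ± 0.08 on the log2 scale (SE; edgeR adjusted p = 1.7e-10). The sum of 5 endothelial markers was between 2.49 and 3.35 TPM in sgIgfbp5 and between 34.0 and 37.8 TPM in sgScr cells, of which Kdr made up 1.93 and 35.4 TPM. Of the 5 genes 3 had a lower mean in sgIgfbp5 cells and 2 a higher one. Tek and Vwf went up, with 0.399 and 0.280 TPM in sgIgfbp5 and 0 and 0.1245 TPM in sgScr cells. Cdh5 and Pecam1 averaged 0 and 0.261 TPM in sgIgfbp5 and 0.0611 and 0.364 TPM in sgScr cells. The part of these markers in the result was not tested.

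Igfbp3 rose. It had 86.9, 96.8 and 98.2 TPM in sgIgfbp5 cells, against 31.5, 30.2 and 29.7 TPM in sgScr cells. All sgIgfbp5 libraries were above all sgScr libraries. The fold change was 2.95, or 1.56 ± 0.07 on the log2 scale (SE; edgeR adjusted p = 8.61e-09). Of the fibroblast markers 5 of 7 had a lower mean in sgIgfbp5 cells, and the sum of the list lay between 1250 and 1399 TPM in sgIgfbp5 and between 2258 and 2474 TPM in sgScr cells. Col3a1 and Pdgfrb went the other way, with 363.7 and 11.9 TPM in sgIgfbp5 and 174 and 8.60 TPM in sgScr cells. All 5 smooth muscle markers had a lower mean in sgIgfbp5 cells, with a sum between 148 and 162 TPM in sgIgfbp5 and between 1157 and 1208 TPM in sgScr cells. The part of these markers in the result was not tested.

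Igfbp4 had 707, 755 and 698 TPM in sgIgfbp5 cells, against 437, 444 and 495 TPM in sgScr cells. Its groups were apart by TPM and by counts, and the log2 fold change was 0.47 ± 0.08 (SE; edgeR adjusted p = 0.000213). Igfbp6 had 59.0, 67.6 and 66.3 TPM in sgIgfbp5 cells, against 162, 195 and 195 TPM in sgScr cells. Every sgIgfbp5 library was below every sgScr library. Its log2 fold change was -1.56 ± 0.11 (SE; edgeR adjusted p = 2.94e-07), or 2.94-fold lower.

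Igfbp2 had 0.573, 0.903 and 1.10 TPM in sgIgfbp5 cells, against 2.42, 3.18 and 4.32 TPM in sgScr cells. These groups did not overlap either, unlike in the tumours. The gene was 3.92-fold lower, a change of -1.97 ± 0.35 on the log2 scale (SE; edgeR adjusted p = 0.000407), from 42 counts over the sgIgfbp5 and 155 over the sgScr libraries. Igfbp1 had 3 counts over the sgIgfbp5 libraries, all of them in replicate 3, and 2 over the sgScr libraries, and was not tested.

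**Figure D4:**
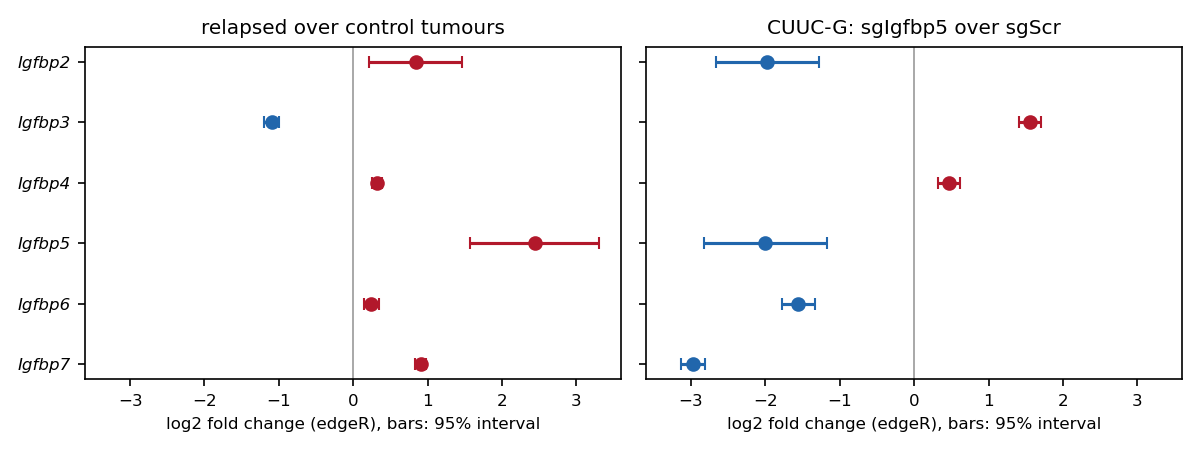
Log2 fold change (x axis) of 6 members (y axis) for relapsed over control tumours (left) and sgIgfbp5 over sgScr CUUC-G (right), from edgeR; points are estimates, red above 0 and blue below, and bars are 95% intervals. Igfbp3 is -1.10 in the tumours and 1.56 in CUUC-G, Igfbp7 0.91 and -2.97, and Igfbp4 is above 0 in both.

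Side by side, Igfbp2, Igfbp5, Igfbp6 and Igfbp7 were called higher in relapsed tumours and lower in sgIgfbp5 CUUC-G. Igfbp3 was called lower in relapsed tumours and higher in sgIgfbp5 CUUC-G, and Igfbp4 was called higher in both by counts. Among all genes tested 73.5% were called in the tumours and 70.8% in CUUC-G. The share of all genes called in opposite directions was not computed, so such calls by themselves set no member apart. In the tumours the result for Igfbp2 held in 8 of 15 alternatives, and those for Igfbp6 and Igfbp4 in 12 of 15 each. The difference between the effects in tumours and in CUUC-G was not tested, since the tables were made separately. The comparisons share no library, but relapsed tumours and sgScr CUUC-G were close to each other by TPM from separately scaled tables. They differed by at least 1 in log2(TPM + 1) for 2.452% of genes. The labels do not say how the tumours and the line are related. Whether the libraries called relapsed here hold tumour tissue or cells of the line was not tested. Whether the mirrored directions are independent observations cannot be told from the labels.

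Genes whose levels followed a member most closely over the 12 mouse libraries were found by the distance between log2 CPM profiles, each centred on the mean of its table, among 8655 protein-coding genes. For Igfbp7 these were Dap (distance 0.18), Ccnb2 (0.30) and Emilin2 (0.35). Dap averaged 284 TPM in relapsed and 164 TPM in control tumours, and 37.2 TPM in sgIgfbp5 and 268 TPM in sgScr CUUC-G. For Igfbp3 they were Retreg3 (0.22), Ube2g2 (0.22) and Dpf2 (0.24), and for Igfbp6 Nubp1 (0.34), Ripk3 (0.35) and Cnn2 (0.35). For Igfbp4 they were Atp5b (0.17), Nfkb2 (0.17) and Sgta (0.18). The libraries share their groups and tables, so these distances describe the profiles and carry no test.

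The ligands and receptors that the binding proteins act on were measured in the same libraries. Of 9 listed ligand, receptor and adaptor genes 7 were tested, and 3 rose and 2 fell in relapsed tumours (edgeR, adjusted p under 0.05), with a median log2 fold change of 0.07, against 0.00 over all genes. In sgIgfbp5 CUUC-G 3 of the 7 rose and 2 fell, with a median of 0.14, against 0.06 over all genes. These shares too stood beside 73.5% of all genes called in the tumours and 70.8% in CUUC-G. Igf2, the ligand that Igfbp6 prefers, averaged 4.28 ± 0.69 TPM in relapsed and 0.465 ± 0.399 TPM in control tumours (SD, n = 3), from 731 and 37 counts, a change of 4.30 ± 0.22 on the log2 scale (SE; edgeR adjusted p = 3.08e-16). In CUUC-G it averaged 1.84 ± 0.50 TPM in sgIgfbp5 and 6.51 ± 0.78 TPM in sgScr cells, a change of -1.78 ± 0.13 on the log2 scale (SE; edgeR adjusted p = 2.58e-07). Insr, the insulin receptor, averaged 4.54 TPM in relapsed and 11.1 TPM in control tumours, and 16.9 TPM in sgIgfbp5 and 4.42 TPM in sgScr CUUC-G, and both differences were called (log2 fold changes -0.99 and 1.95). Igf1r, the receptor through which both IGFs signal, averaged 12.6 TPM in relapsed and 10.6 TPM in control tumours and was called in neither comparison (edgeR log2 fold change 0.02 with a 95% interval of -0.09 to 0.13 in tumours, and 0.14 with an interval of -0.06 to 0.33 in CUUC-G). Igf1 was called higher in relapsed tumours (log2 fold change 1.52) and lower in sgIgfbp5 CUUC-G (-0.71), but by TPM it averaged 5.76 in sgIgfbp5 and 5.42 in sgScr cells. Irs2 was called lower in relapsed tumours (-0.38) and higher in sgIgfbp5 CUUC-G (0.95).

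Of 10 listed genes for IGFBP proteases, their inhibitors and the acid-labile subunit, 8 were tested: 4 rose and 4 fell in relapsed tumours, and 2 rose and 5 fell in sgIgfbp5 CUUC-G (edgeR, adjusted p under 0.05). Over all genes 73.5% were called in the tumours and 70.8% in CUUC-G. Their median log2 fold changes were -0.20 in tumours and -0.93 in CUUC-G, against 0.00 and 0.06 over all genes. Pappa, which encodes the protease PAPP-A that cuts Igfbp4, averaged 0.137 TPM in relapsed and 1.15 TPM in control tumours, a change of -2.93 ± 0.26 on the log2 scale (SE; edgeR adjusted p = 1.39e-10). In CUUC-G it averaged 0.585 TPM in sgIgfbp5 and 0.0875 TPM in sgScr cells, a change of 2.65 ± 0.28 on the log2 scale (SE; edgeR adjusted p = 5.69e-06). Stc1, a stanniocalcin that inhibits PAPP-A, averaged 17.0 TPM in relapsed and 0.0661 TPM in control tumours, and 0.0428 TPM in sgIgfbp5 and 15.2 TPM in sgScr CUUC-G. The low levels rest on 10 counts over the control tumours and 7 over the sgIgfbp5 libraries. Stc2, the other stanniocalcin, fell in relapsed tumours (log2 fold change -0.64) and did not pass in CUUC-G (-0.12). Htra1, a serine protease with an IGFBP domain of its own, fell in relapsed tumours (-1.53) and rose in sgIgfbp5 CUUC-G (0.44). Mmp2 averaged 206.5 TPM in relapsed and 59.8 TPM in control tumours, and 24.8 TPM in sgIgfbp5 and 191.2 TPM in sgScr CUUC-G. Mmp2, Plau and Timp1 rose in relapsed tumours (log2 fold changes 1.92, 1.58 and 0.24) and fell in sgIgfbp5 CUUC-G (-3.02, -1.45 and -0.89). Adamts1 fell in both (-0.75 and -0.96).

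Other genes with an IGFBP domain include the matricellular CCN genes. Htra1 is in this list as well as in the protease list, and is counted in both. Of 13 listed, 9 were tested in the tumours, of which 2 rose and 5 fell, and 8 in CUUC-G, of which 4 rose and 3 fell (edgeR, adjusted p under 0.05), against the same 73.5% and 70.8% of all genes called. The medians were -0.64 in tumours and 0.05 in CUUC-G, against 0.00 and 0.06 over all genes. Ccn3 averaged 2.78 ± 0.17 TPM in relapsed and 31.1 ± 3.36 TPM in control tumours, and 47.1 ± 2.10 TPM in sgIgfbp5 and 2.75 ± 0.33 TPM in sgScr CUUC-G (SD, n = 3). Ccn1 averaged 457 TPM in relapsed and 386 TPM in control tumours, and 158 TPM in sgIgfbp5 and 438 TPM in sgScr CUUC-G. Ccn3 was called in the directions of Igfbp3, as was Ccn4 (log2 fold changes -1.20 in tumours and 0.66 in CUUC-G). Ccn1 was called in those of Igfbp7, as was Crim1 (0.35 and -0.35). Ccn2 was called lower in both comparisons (-0.53 and -2.17). It averaged 201 TPM in relapsed and 307 TPM in control tumours, and 42.1 TPM in sgIgfbp5 and 177 TPM in sgScr CUUC-G.

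The human IGFBP5 transcript fell in targeted MGHU3. It had 2.18, 2.02 and 1.93 TPM in IGFBP5-targeted cells, against 14.0, 17.2 and 15.8 TPM in sgScr cells. The groups did not overlap, and the targeted cells still held 198, 180.2 and 185 estimated counts, against 1340, 1353 and 1367 in sgScr cells. The transcript was 7.39-fold lower, a change of -2.89 ± 0.10 on the log2 scale (SE, n = 3 per group; edgeR adjusted p = 0.00134). Of 44970 transcripts tested 2.57% were called, 1.68% as lower and 0.894% as higher. These shares are not stable: of the transcripts tested, 402 were called higher and 754 lower. Without targeted replicate 2 the numbers were 0 and 23, and without sgScr replicate 3 they were 12 and 42. Without targeted replicate 1 they were 7 and 60, and without targeted replicate 3 they were 8 and 70. With DESeq2, in a fit of 124809 transcripts, they were 1433 and 1664. At an unadjusted p under 0.05, edgeR without targeted replicate 2 gave 2228 higher and 3091 lower of 50382 tested.

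**Figure D5:**
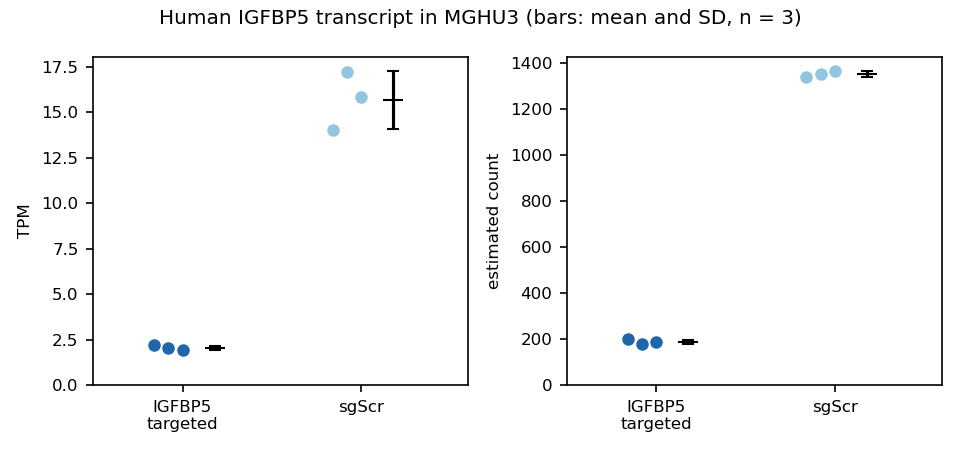
TPM (left) and estimated counts (right) of the human IGFBP5 transcript (y axes, linear) in IGFBP5-targeted and sgScr MGHU3 libraries (x axis); points are libraries and black bars the mean and SD. The targeted cells lie between 1.93 and 2.18 TPM and the sgScr cells between 14.0 and 17.2 TPM.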

How the data were processed

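Poly(A) RNA was sequenced from stranded libraries, per the labels' protocols. The submitters' processing notes name Salmon, with no version, and GRCh38 (hg38) and GRCm38 (mm10) without roles. Estimated counts and TPM were deposited by the authors, by transcript for the tumours and MGHU3 and by gene for CUUC-G. Tumour transcripts were summed here to 55858 genes, of which 51460 were found in GENCODE M21, a different release from the authors'. The table columns marked mI were taken as sgIgfbp5, because the labels mark targeted MGHU3 with hI. The human transcript has no gene name in the files and was taken as IGFBP5 by its identifier. Library totals lay between 19000000 and 21800000 estimated counts.

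Counts were rounded and tested with edgeR 4.0.16 in R 4.3.3 (quasi-likelihood, two-sided, TMM scaling, filterByExpr, Benjamini-Hochberg over all features, threshold 0.05, only the libraries compared). SE is the absolute log2 fold change over the square root of F. CPM uses TMM-scaled library totals, except for the Igfbp1 limit, which uses the totals as they are and 3 counts over the group. Alternatives were other scalings and filters, DESeq2 1.42.0, limma 3.58.1 on log2(TPM + 1) and log2(TPM + 0.1), the replicate number as a block, and each library left out. The fits were also tested on simulated data. Members, gene lists, tests and the rule for named genes were chosen with earlier results of these data known. The rule named all members, and for each member above 10 CPM the 3 protein-coding genes nearest in profile. Genes of the lists could be named, first those called in both mouse comparisons.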

Additional observations from a re-analysis of the deposited data

How the results depend on the processing

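Of 531 values recomputed under the alternatives, 483 kept their direction and side of the threshold or stayed within 1.5 times the reported count. The Igfbp4 difference between relapsed and control tumours turned to -0.048 (log2) in the 3 limma settings, as described above with its transcripts. The number of members called higher in relapsed tumours was then 1 with a pseudocount of 1, 1 with 0.1 and 2 without a TPM filter. In the same settings 1 ligand, receptor or adaptor gene was called lower in CUUC-G, and 1 protease-list gene higher with either pseudocount under the TPM filter. Igfbp5 could not be tested with limma on genes of at least 1 TPM on average, and on log2(TPM + 1) its low level compresses the difference. By CPM, which is not divided by length, the summed level of the family differed by 25.5% between relapsed and control tumours, against 15.6% by TPM, and by 6.2% between sgIgfbp5 and sgScr CUUC-G, against -14.7% by TPM. Igfbp7 then held 24.7% of the family in relapsed and 16.6% in control tumours, and 2.68% in sgIgfbp5 and 22.3% in sgScr CUUC-G. Igfbp4 held 61.5% of the family in relapsed and 61.8% in control tumours, and 83.0% in sgIgfbp5 and 63.7% in sgScr CUUC-G. Leaving out each library gave between 3 and 5 genes with an IGFBP domain called lower in CUUC-G, with 5 without sgScr replicate 2 or sgIgfbp5 replicate 3.

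The MGHU3 counts over all transcripts were the least stable. DESeq2, in a fit of 124809 transcripts, called 1433 higher and 1664 lower in IGFBP5-targeted cells, and limma without a filter 193 and 418 of 124811. Leaving out each library in turn, edgeR called between 0 and 532 higher and between 23 and 695 lower; the low counts came without any 1 targeted library or without sgScr replicate 3. The IGFBP5 transcript stayed between -2.94 and -2.83 in these fits, with an adjusted p of at most 0.0381. With the replicate number as a block, edgeR called 0 of 44970 transcripts higher and 0 lower (2513 and 2810 at an unadjusted p under 0.05). The IGFBP5 transcript was then at -2.89 (edgeR adjusted p = 0.112). Same-numbered libraries of MGHU3 correlated at 0.005 to 0.017 in their deviations from the group means. Those of the tumours correlated at 0.019 to 0.036 and those of CUUC-G at -0.221 to 0.127. Differently numbered libraries correlated at -0.015 to 0.005 in MGHU3, -0.039 to 0.014 in the tumours and -0.273 to 0.276 in CUUC-G. The values in MGHU3 and the tumours are all small, but the same-numbered ones are not below the others. With 3 libraries per group, whether the numbers pair the libraries cannot be told. The block changed no call of a mouse member. Few counts limit Igfbp5, Igfbp2 and Igfbp1 in the mouse libraries.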
